A study of Mus musculus with 23 samples.

Results

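Iron and heme handling was followed through 10 genes: Cd163, Hp, Hmox1, Hmox2, Blvrb, Slc11a1, Slc40a1, Fth1, Tfrc and Alas2. They are 10 of the 18194 genes that carry a symbol of their own on the array, and every probe set named for them was taken, 17 in all, of which 3 are control probe sets for Tfrc. The list was chosen by signals already seen in these groups, so the values of the 10 genes are given below as a description, with no p-value. The tests concern 52 other iron and heme genes, 9 genes of the Nrf2 response and markers of cell types.

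The samples were medulloblastomas with the genotype Ptch+/-HIC+/-, grown under the skin of Harlan nu/nu mice and dosed with vehicle or with NVP-LDE225, a Smoothened antagonist that blocks Hedgehog signalling. All 8 groups share the tumour genotype and the nude host, which lacks most T cells but keeps macrophages and other myeloid cells. The groups were vehicle with no stated time (3 arrays), vehicle at 4 h (2 arrays), drug at 40 mg/kg taken at 4, 8, 24 and 48 h (3 arrays each), and tumours described as resistant at 40 mg/kg and at 160 mg/kg (3 arrays each, with no stated time since a dose). The labels do not say whether the arrays of a group came from separate animals, so the spread may be partly technical. For 6 of the 12 short-term drug arrays another label reads resistant, and the description was followed.

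Heme released from red cells is bound with hemoglobin by haptoglobin (Hp) and taken up by macrophages through the scavenger receptor Cd163. Heme oxygenases (Hmox1, inducible, and Hmox2, constitutive) open the heme ring and release iron and biliverdin, which biliverdin reductases such as Blvrb reduce. Iron is then moved out of the phagosome by Slc11a1, stored in ferritin (Fth1 is its heavy chain) or exported by ferroportin (Slc40a1), while the transferrin receptor Tfrc brings iron into cells and Alas2 starts heme synthesis in red cell precursors.

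Each value is a MAS5 signal, a linear intensity that the authors scaled so that the 2% trimmed mean was 150 on every array. The array's 40th percentile of signal lay between 18.7 and 28.6, and a signal below it is not read as a level. Differences are in log2 of signal plus 16, with the standard error (SE) of one limma fit over all 23 arrays, and the 24 h, 48 h and resistant groups are all set against the same 3 vehicle arrays. The 4 h and 8 h groups are set against the same 2 arrays of vehicle at 4 h. As a sign of RNA quality, actin probe sets at the 3' end exceeded those at the 5' end, in log2, by 1.04 ± 0.04 (SD, n = 3) in vehicle, 1.65 ± 0.22 (n = 3) at 24 h, 0.92 ± 0.07 (n = 3) at 48 h, 1.09 ± 0.33 (n = 3) in resistant 40 and 1.27 ± 0.17 (n = 3) in resistant 160 tumours. Its part in the results was not tested.

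RefSeq promoter windows (build GRCm38.p6) were at hand for 7 of the 10 genes, but not for Hmox1, Slc40a1 and Hp. Shown are the 250 bases before the start of Alas2, at chrX:150547167-150547416 on the plus strand, and before a start of Fth1, at chr19:9980350-9980599 on the plus strand. These genes were picked because Alas2 was high in the resistant tumours alone and Fth1 was highest at 48 h. Another window of Fth1, before a start further downstream, at chr19:9982396-9982645, is not shown and held no match. Capitals mark matches to a motif.
Alas2: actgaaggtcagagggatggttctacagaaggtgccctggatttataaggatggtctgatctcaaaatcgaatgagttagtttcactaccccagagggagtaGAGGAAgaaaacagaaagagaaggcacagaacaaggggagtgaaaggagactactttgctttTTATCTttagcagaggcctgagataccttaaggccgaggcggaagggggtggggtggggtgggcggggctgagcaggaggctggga
Fth1: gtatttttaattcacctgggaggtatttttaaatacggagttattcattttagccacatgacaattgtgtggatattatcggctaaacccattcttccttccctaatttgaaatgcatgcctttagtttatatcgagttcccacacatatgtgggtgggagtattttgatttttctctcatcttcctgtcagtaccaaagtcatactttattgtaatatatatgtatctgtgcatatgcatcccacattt
The motifs searched on both strands were the antioxidant response element core TGACNNNGC, the E-box CACGTG of the MiT/TFE family, the GATA site AGATAA and the PU box GAGGAA, which do not overlap here. In 12 windows of the 7 genes, some of which overlap, the first and the second had 0 matches. They occur in 10.2% and 6.02% of 32851 mouse windows, so 12 windows are too few to show a lack of either. The GATA site was found in 1 window, that of Alas2, 86 bases before the start on the minus strand, and occurs in 9.99% of all windows. The PU box was found in 2 windows, 148 bases before the start of Alas2 and 152 bases before a start of Slc11a1, and occurs in 23.3% of all windows. A match describes the letters of the window only.

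Hmox1 (chromosome 8, 75093618 to 75100593) had the widest range of the genes of heme breakdown. Its signal was 125.5, 78.2 and 82.3 on the vehicle arrays and 92.1 and 36.3 on the arrays of vehicle at 4 h. With drug it was 89.2, 199.1 and 70.2 at 4 h and 87.7, 129.9 and 147.6 at 8 h. These early groups overlapped their vehicle. At 24 h the arrays gave 278.1, 192.4 and 433.6, and at 48 h 2776.7, 1282.7 and 1946.7. Resistant tumours measured 691.0, 837.6 and 1782.3 at 40 mg/kg and 272.1, 835.2 and 1609.5 at 160 mg/kg. Every array from 24 h on and every resistant array was above every vehicle array. The fitted difference from vehicle was 1.46 (SE 0.47) at 24 h, 4.14 (SE 0.47) at 48 h, 3.23 (SE 0.47) in resistant 40 and 2.75 (SE 0.47) in resistant 160 tumours.

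Hmox2 (chromosome 16, 4726361 to 4766742), the constitutive oxygenase, stayed within a narrow band. It measured 546.7, 497.9 and 458.0 in vehicle and 665.7, 603.8 and 792.7 at 48 h, the one group that lay wholly above vehicle, at 0.44 (SE 0.11). In the other 6 groups its signal ran from 403.2 to 520.0 and overlapped the control. Resistant 40 and resistant 160 tumours differed from vehicle by -0.11 and -0.17 (SE 0.11 each). The difference between Hmox1 and Hmox2 is thus one of scale as well as of groups, with Hmox1 at 21.0 times its vehicle mean at 48 h and Hmox2 at 1.37 times.

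Blvrb (chromosome 7, 27447978 to 27465981), which reduces biliverdin and flavins, measured 88.4, 144.4 and 86.4 in vehicle. At 48 h it was 376.8, 249.2 and 385.6, above every vehicle array, at 1.54 (SE 0.40). Resistant 40 tumours gave 127.6, 679.1 and 138.6, with 1 array, replicate 2, far above the others, and a difference of 1.06 (SE 0.40). Without that array the difference was 0.32. Resistant 160 tumours gave 70.6, 156.0 and 230.3 and overlapped vehicle, at 0.37 (SE 0.40), and at 0.78 without replicate 1. At 4, 8 and 24 h its signal ran from 111.4 to 191.3 and overlapped vehicle.

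Cd163 (chromosome 6, 124304636 to 124330529), the hemoglobin-haptoglobin receptor of macrophages, exceeded the 40th percentile on 8 of 23 arrays. Vehicle signals were 0.9, 0.9 and 1.3, and those of vehicle at 4 h were 7.8 and 7.4. At 48 h they were 131.2, 42.3 and 60.5, in resistant 40 tumours 128.0, 37.2 and 38.0, and in resistant 160 tumours 2.2, 28.1 and 64.9. These 8 arrays were all 3 at 48 h, all 3 of resistant 40 and replicates 2 and 3 of resistant 160. At 4, 8 and 24 h the signal was 1.3 to 10.1, where an order has no meaning. The fitted difference was 2.35 (SE 0.43) at 48 h, 2.13 (SE 0.43) in resistant 40 and 1.24 (SE 0.43) in resistant 160 tumours.

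Hp (chromosome 8, 109575128 to 109579172), the plasma protein that binds free hemoglobin, had another pattern. It was 5.1, 2.3 and 4.4 in vehicle and 3.0 on both arrays of vehicle at 4 h. Drug-treated tumours gave 83.1, 197.8 and 10.6 at 4 h, 88.4, 2.7 and 60.7 at 8 h, 228.4, 37.5 and 98.0 at 24 h, and 53.6, 214.0 and 142.6 at 48 h. The signal was high on most drug arrays from the first time on, with a large spread, and 1 array at 8 h was as low as vehicle. Resistant 40 tumours gave 5.1, 2.3 and 28.3 and overlapped vehicle, whereas resistant 160 tumours gave 51.1, 20.4 and 69.9. Differences from the matching vehicle were 2.12 (SE 0.73) at 4 h, 1.48 (SE 0.73) at 8 h, 2.52 (SE 0.65) at 24 h, 2.78 (SE 0.65) at 48 h, 0.37 (SE 0.65) in resistant 40 and 1.58 (SE 0.65) in resistant 160 tumours.

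Fat cells also express Hp. The summed signal of the 4 adipocyte markers tested of 6 listed (Adipoq, Cidec, Fabp4 and Retn) was 96.0 to 258.3 in vehicle and 199.3 to 572.2 in vehicle at 4 h. It was 568.4 to 2042.5 at 4 h, 484.0 to 758.3 at 8 h, 459.9 to 2142.1 at 24 h and 2813.7 to 5616.3 at 48 h. Resistant 40 tumours gave 237.6 to 481.6 and resistant 160 tumours 608.5 to 5770.3. Most of the sum was Fabp4, with a mean of 3638.8 of 4034.5 at 48 h, so the sum chiefly follows that 1 gene. Adipoq had a mean of 17.5 in vehicle and 25.45 in vehicle at 4 h. With drug its mean was 90.9 at 4 h, 59.9 at 8 h, 110.4 at 24 h and 257.5 at 48 h. It was 30.7 in resistant 40 and 196.4 in resistant 160 tumours. Of the 4 markers 0 were called at 4 h, at 8 h and in resistant 40 tumours (limma, adjusted p under 0.05). At 24 h 1 was higher, at 48 h 3 and in resistant 160 tumours 1, beside 16.6%, 20.6% and 0.804% of all probe sets. Hp and the markers were both highest at 4 h on replicate 2, at 24 h on replicate 1, at 48 h on replicate 3 and in both resistant groups on replicate 3, but not on the same array at 8 h. The part of fat cells in the Hp signal was not tested.

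**Figure D1:**
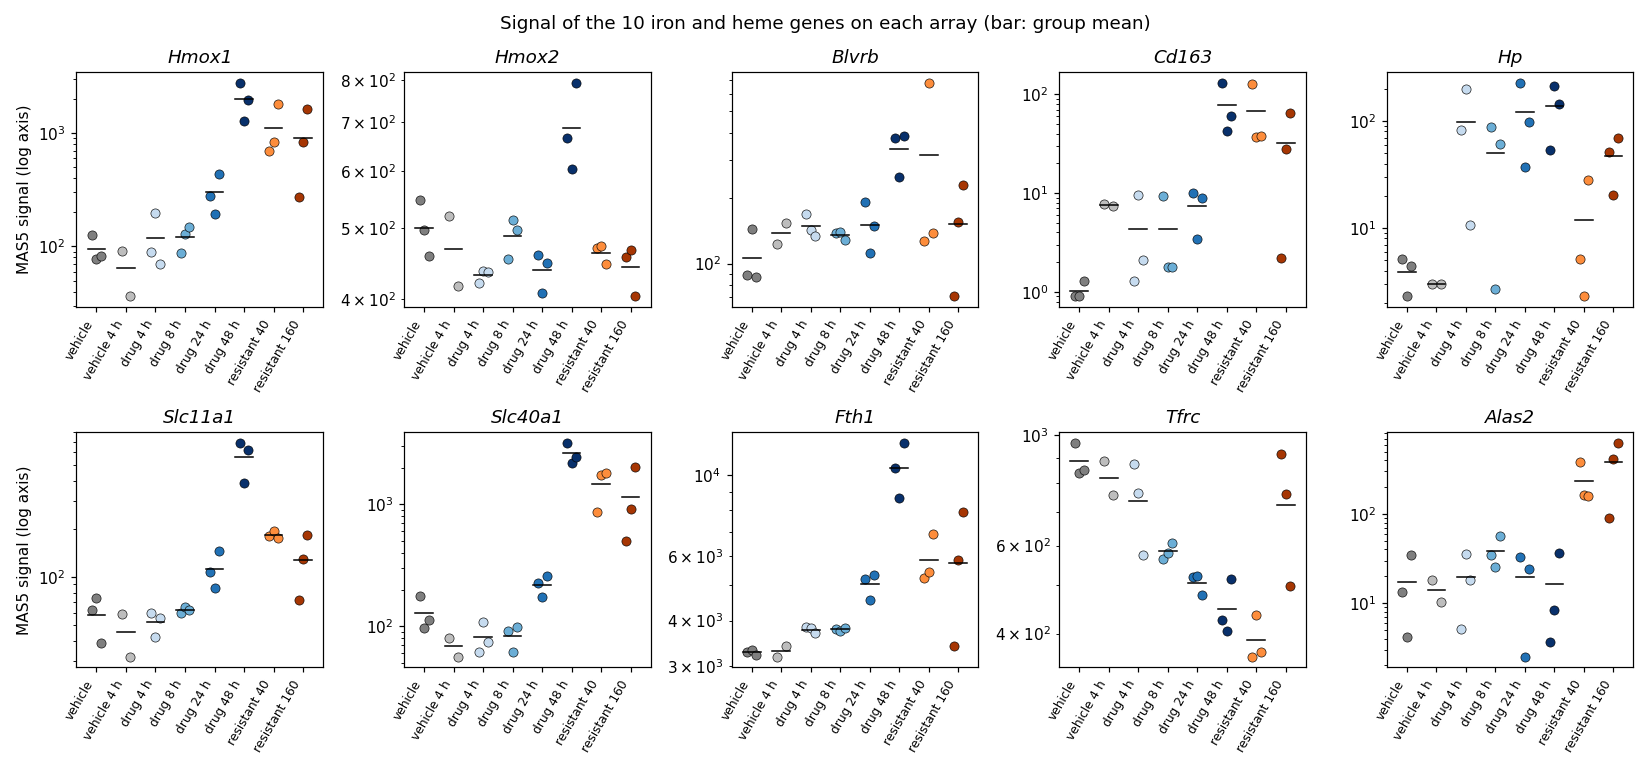
MAS5 signal (log axis, a different range in each panel) of the leading probe set of each of the 10 genes, with 1 point per array in each of the 8 groups and a bar at the group mean. Slc40a1, Hmox1, Slc11a1 and Fth1 are highest at 48 h, Tfrc runs downward from vehicle to 48 h, and the 6 resistant arrays, at 89.3 or more, hold the highest Alas2 signals.

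Slc11a1 (chromosome 1, 74375014 to 74386057), the divalent metal transporter of the phagosome, measured 62.0, 73.8 and 38.9 in vehicle. It was 107.6, 85.7 and 145.5 at 24 h and 688.4, 386.7 and 617.8 at 48 h. Resistant 40 tumours were close together at 179.8, 194.6 and 175.2, and resistant 160 tumours gave 72.1, 129.5 and 182.4. The groups at 24 h, at 48 h and of resistant 40 lay above every vehicle array, while replicate 1 of resistant 160 fell within the range of vehicle. Differences were 0.80, 2.96, 1.45 and 0.91 in that order (SE 0.26 each). Its 48 h arrays also lay above every resistant 40 array, a difference of -1.50 (SE 0.26) for resistant 40 against 48 h.

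Slc40a1 (chromosome 1, 45908070 to 45926532) is ferroportin, the iron exporter of cells. Its leading probe set measured 176.0, 97.4 and 112.5 in vehicle and 80.8 and 56.4 in vehicle at 4 h. With drug it was 62.2, 108.4 and 74.3 at 4 h, 91.2, 61.9 and 98.7 at 8 h, and 225.7, 174.5 and 258.7 at 24 h. None of these drug groups stood wholly apart from its vehicle. At 48 h the signals were 3200.6, 2197.8 and 2456.5, and resistant tumours gave 858.7, 1730.6 and 1805.0 at 40 mg/kg and 502.9, 912.2 and 2012.0 at 160 mg/kg. All 9 of these arrays were above every vehicle array, and the resistant groups spread more widely than the 48 h group relative to their means. The difference from vehicle was 0.73 at 24 h, 4.21 at 48 h, 3.32 in resistant 40 and 2.82 in resistant 160 tumours (SE 0.34 each), and that of resistant 40 against 48 h was -0.89 (SE 0.34).

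The second Slc40a1 probe set was dimmer and gave the same order for the 3 groups with high signal, but not at 24 h. There it measured 50.8, 24.7 and 36.2, a difference from vehicle of -0.27 (SE 0.34), where the leading probe set gave 0.73, and both overlapped vehicle. It measured 74.4, 30.3 and 43.0 in vehicle and 844.9, 710.0 and 828.8 at 48 h. Resistant 40 tumours gave 162.6, 317.7 and 434.0, and resistant 160 tumours gave 89.7, 163.0 and 334.6. Both resistant groups were again wholly above vehicle and wholly below 48 h. The leading probe set also placed both resistant groups above every vehicle array and below every 48 h array.

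Fth1 (chromosome 19, 9980600 to 9985111), the ferritin heavy chain, was among the brightest signals. Its leading probe set measured 3280.1, 3327.8 and 3222.0 in vehicle and 3186.3 and 3410.3 in vehicle at 4 h. Drug-treated tumours gave 3833.1, 3807.6 and 3693.8 at 4 h and 3798.8, 3753.0 and 3811.2 at 8 h. Both early groups thus lay above both arrays of their vehicle, by 0.20 (SE 0.20) each. Later arrays gave 5202.3, 4551.3 and 5316.8 at 24 h and 10438.6, 8640.2 and 12230.4 at 48 h. Resistant tumours gave 5210.6, 5430.6 and 6881.9 at 40 mg/kg and 3400.6, 5857.8 and 7924.6 at 160 mg/kg. The difference from vehicle was 0.61 at 24 h, 1.65 at 48 h, 0.82 in resistant 40 and 0.72 in resistant 160 tumours (SE 0.18 each). On the other probe set, replicate 1 of resistant 160 gave 1736.1, below the vehicle range of 2062.9 to 2299.2, so the probe sets disagree on whether that group overlaps vehicle.

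Tfrc (chromosome 16, 32608896 to 32632794), the receptor for iron-loaded transferrin, ran the other way. Its leading probe set measured 963.9, 838.7 and 851.7 in vehicle and 885.3 and 757.4 in vehicle at 4 h. Under drug the arrays gave 874.7, 763.2 and 575.0 at 4 h, 565.2, 581.1 and 606.3 at 8 h, 518.4, 522.7 and 477.4 at 24 h, and 426.3, 405.2 and 514.4 at 48 h. From 8 h on every drug array was below every array of its vehicle. Resistant 40 tumours were also wholly below, at 359.5, 436.4 and 368.2. Resistant 160 tumours gave 915.7, 760.1 and 499.0 and overlapped vehicle.

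The difference of Tfrc from its vehicle was -0.17 (SE 0.18) at 4 h, -0.48 (SE 0.18) at 8 h, -0.79 (SE 0.16) at 24 h, -0.96 (SE 0.16) at 48 h and -1.16 (SE 0.16) in resistant 40 tumours. In resistant 160 tumours it was -0.32 (SE 0.16), and it became -0.08 without replicate 3 and -0.51 without replicate 1. By the leading probe sets, Tfrc was the only one of the 10 genes whose resistant groups did not overlap each other. It was 0.84 (SE 0.16) higher in resistant 160 than in resistant 40. A second Tfrc probe set was dim. It gave 45.5, 43.7 and 74.3 at 8 h, which overlapped the 132.4 and 46.8 of vehicle at 4 h. At 48 h it gave 55.4, 51.4 and 79.7, below the vehicle range of 93.7 to 126.8. Its resistant groups overlapped, with 51.6 to 74.7 at 40 mg/kg and 47.4 to 105.3 at 160 mg/kg, a difference of 0.15 (SE 0.30). The third did not exceed 25.9 on any array. Of the 3 control probe sets, that for the 3' end gave 74.5 to 97.5 in vehicle and 36.8 to 57.7 at 48 h. It gave 36.4 to 40.6 in resistant 40 and 47.6 to 81.0 in resistant 160 tumours. The other 2 did not exceed 39.8.

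Alas2 (chromosome X, 150547417 to 150570622), the first enzyme of heme synthesis in red cell precursors, was dim outside the resistant tumours. It measured 13.4, 4.2 and 34.3 in vehicle and 18.1 and 10.2 in vehicle at 4 h. Under drug its signal ran from 5.1 to 35.8 at 4 h, from 25.5 to 56.7 at 8 h, from 2.5 to 32.6 at 24 h and from 3.7 to 36.8 at 48 h. Resistant 40 tumours gave 385.2, 162.8 and 159.2, and resistant 160 tumours gave 89.3, 418.9 and 628.8. All 6 resistant arrays were above all other 17 arrays. The difference from vehicle was -0.08 at 48 h, 2.91 in resistant 40 and 3.32 in resistant 160 tumours, and resistant 40 was 2.98 above 48 h (SE 0.53 each).

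Globin messages, the main RNA of young red cells, were high on the same arrays by the probe sets that carry several symbols. The beta-globin probe set that carries several symbols gave 1449.6 to 2295.9 in vehicle, 417.9 to 1138.0 at 48 h, 8545.0 to 12571.7 in resistant 40 and 6654.3 to 13379.7 in resistant 160 tumours. This probe set was picked after its values were seen, as were those with 1 symbol. Of the latter, Hba-a1 and Hba-a2 did not exceed 32.5 in the resistant tumours and were not wholly above vehicle. For Hbb-b2, 1 probe set gave 34.0 to 66.2 in the resistant tumours and 6.6 to 54.4 in vehicle. The other gave 28.2 to 262.1 and 0.8 to 2.7. Of 14 listed erythroid markers 8 were named on the array and 4 were tested. Their summed signal ran from 43.0 to 71.7 in vehicle, 120.3 to 174.4 at 48 h, 56.7 to 157.0 in resistant 40 and 79.6 to 181.6 in resistant 160 tumours. Of the 4, 1 was higher at 48 h, 1 in resistant 40 and 0 in resistant 160 tumours (limma, adjusted p under 0.05). Of all probe sets 20.6%, 3.83% and 0.804% were higher in the same order. Slc4a1, the anion exchanger of red cells, was 8.0 ± 5.4 (SD, n = 3) in vehicle and 44.3 ± 24.7 (n = 3) in resistant 40 tumours, a rise of 1.27 (SE 0.33, limma, adjusted p = 0.019). In resistant 160 tumours it was 39.2 ± 24.4 (n = 3) and the difference of 1.14 did not pass (limma, adjusted p = 0.1). Gata1, a factor of red cell precursors, had a mean of 16.4 and 18.2 in the resistant groups and 21.9 in vehicle. Car1 had a mean of 8.9 in resistant 40, 28.1 in resistant 160 and 19.2 in vehicle. The mean of Epor was 37.9 and 28.9 in the resistant groups, 12.97 in vehicle and 98.7 at 48 h, most of the 48 h sum. Signals of Slc4a1 in vehicle and of Car1 in vehicle and resistant 40 lay below the 40th percentile. The Gata1 means lay below or within its range across arrays, 18.7 to 28.6. The part of red cells or their precursors in the Alas2 signal was not tested.

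**Figure D2:**
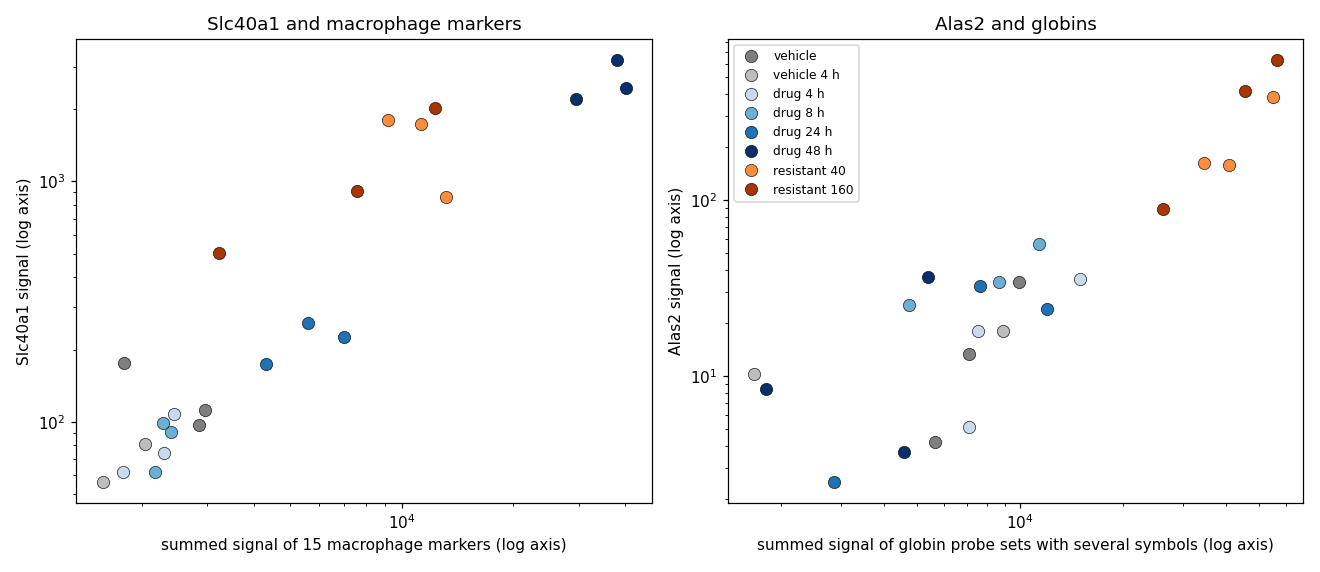
Left, Slc40a1 signal against the summed signal of 15 macrophage markers; right, Alas2 signal against the summed signal of the 4 globin probe sets that carry several symbols, all on log axes with 1 point per array, coloured by group. The 48 h arrays are the farthest right in the left panel, at 29457 to 40107 units, and the 6 resistant arrays hold the highest Alas2 signals in the right panel.

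Macrophage markers moved with most of the genes. The sum over 15 of 15 markers, led by Lyz2, Csf1r and C1qa, was 1786.4 to 2961.7 in vehicle, 1568.3 to 2039.2 in vehicle at 4 h, 1780.6 to 2447.7 at 4 h and 2175.3 to 2398.3 at 8 h. It was 4305.6 to 7022.7 at 24 h, 29457.4 to 40107.3 at 48 h, 9222.7 to 13137.7 in resistant 40 and 3228.6 to 12301.1 in resistant 160 tumours. Against vehicle 9 of 15 markers were higher at 24 h, 15 at 48 h, 13 in resistant 40 and 9 in resistant 160 tumours, and 15 of 15 were lower in resistant 40 than at 48 h (limma, adjusted p under 0.05). Over all probe sets the shares called higher were 16.6%, 20.6%, 3.83% and 0.804% in the same order, and 15.4% were lower in resistant 40 than at 48 h. In whole tumour RNA, more or fewer cells of a type and more or less RNA per cell cannot be told apart.

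The mean macrophage sum was 35889 ± 5659 (SD, n = 3) at 48 h and 11208 ± 1958 (n = 3) in resistant 40 tumours. Slc40a1 was 2618 ± 521 (n = 3) at 48 h and 1465 ± 526 (n = 3) in resistant 40 tumours, or 0.559 of the 48 h mean, and Hmox1 was at 0.551 of it. In log2, resistant 40 against 48 h gave a median of -1.60 over the markers, beside -0.89 for Slc40a1, -0.90 for Hmox1 and -1.50 for Slc11a1. The other genes wholly higher at 48 h than vehicle gave -0.22 (Cd163), -0.48 (Blvrb), -0.55 (Hmox2), -0.83 (Fth1) and -2.40 (Hp). Slc11a1 thus lay near the marker median, Hp below it and the rest above it, and these gaps were not tested. Within resistant 160, replicate 1 had the lowest macrophage sum and the lowest signals of Hmox1, Blvrb, Cd163, Slc11a1, Slc40a1, Fth1 and Alas2, together with the highest signal of Tfrc. The arrays of resistant 40 did not run in parallel in this way for Slc40a1, Hmox1 and Fth1. Replicate 1 had the highest macrophage sum, 13137.7, with the lowest signals of these 3 genes. Replicate 3 had the lowest sum, 9222.7, with their highest signals. Cd163, however, was highest on replicate 1, at 128.0 against 37.2 and 38.0.

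Other markers moved too. Endothelial markers were higher at 48 h for 11 of 11 tested, fibroblast and matrix markers for 9 of 10 and neutrophil markers for 4 of 6 (limma, adjusted p under 0.05), beside 20.6% of all probe sets. Muscle markers were higher at 24 h for 8 of 10, beside 16.6% of all probe sets, with a summed signal of 9507.2 to 13202.2 against 982.8 to 9666.0 in vehicle. The 11 genes of the granule neuron lineage and of Hedgehog signalling, which define the labelled tumour, summed to 16931.3 to 21409.5 on every array, but they moved in opposite directions, with 4 higher and 6 lower at 48 h. Gli1, a Hedgehog target, had a mean of 679 in vehicle, 12.3 at 48 h and 1165 in resistant 40 tumours, and Neurod1, a factor of neuronal differentiation, 305, 6435 and 1587.

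The 10 genes can also be counted by whether their groups overlap. Since the genes were chosen with these contrasts in view, the counts are a description, and the share of all 35066 tested probe sets beside each is printed for scale only. At 4 h, 2 of the 10 (Hp and Fth1) had no array in the range of vehicle at 4 h and were higher, where 11.4% of all probe sets were. For Hp this rests on drug replicate 3, which at 10.6 was, like vehicle at 4 h, below the 40th percentile, so that its order has no meaning. At 8 h, 3 were higher (Slc11a1, Fth1 and Alas2; background 17.8%) and 1, Tfrc, was lower (15.7%). At 24 h, 5 were higher (Hmox1, Cd163, Hp, Slc11a1 and Fth1; 25.3%), of which Cd163 lay below the 40th percentile in both groups and has no order there, and Tfrc was lower (17.7%), with a median difference of 0.53 beside 0.10 over all probe sets. At 48 h, 8 were higher (26.3%), Tfrc was lower (22.5%) and Alas2 overlapped, with a median of 2.00 beside 0.04.

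In resistant 40 tumours 6 of the 10 were higher (Hmox1, Cd163, Slc11a1, Slc40a1, Fth1 and Alas2; background 11.2%) and Tfrc was lower (9.98%), with a median of 1.25 beside 0.02. In resistant 160 tumours 6 were higher (Hmox1, Cd163, Hp, Slc40a1, Fth1 and Alas2; 8.42%) and none lower, with a median of 1.07 beside 0.01. For Cd163 this rests on replicate 1, which at 2.2 was, like vehicle, below the 40th percentile, so that its order against vehicle has no meaning. The same holds for Hp through replicate 2, at 20.4. Resistant 40 against 48 h had 1 gene higher, Alas2 (18.4%), and 5 lower (Hmox2, Hp, Slc11a1, Slc40a1 and Fth1; 20.5%). Resistant 160 against resistant 40 had 1 higher, Tfrc (5.58%), by its leading probe set but not by the second. The vehicle groups differed from each other without overlap for 2 genes, with Cd163 higher at 4 h (13%) but below the 40th percentile in both, and Slc40a1 lower at 4 h (12.2%).

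**Figure D3:**
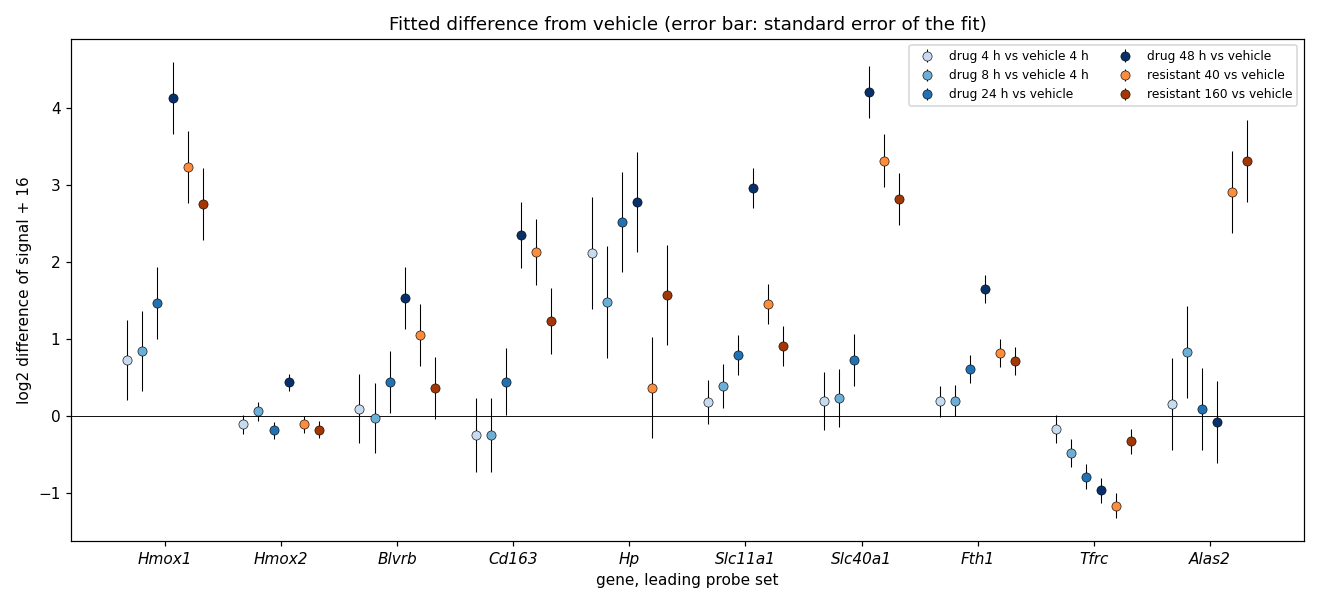
Fitted difference from the matching vehicle group, in log2 of signal plus 16, for the leading probe set of each of the 10 genes. Points are the 6 comparisons and bars the standard error of the fit. Slc40a1 and Hmox1 reach 4.21 and 4.14 at 48 h, Tfrc lies below 0 in every comparison shown, and Alas2 reaches 2.91 and 3.32 in the resistant tumours.

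Of the 52 other iron and heme genes tested, more were called at the later times, as was also true of all probe sets. In these and the other lists each gene counts once, by its tested probe set with the highest mean signal. The share of all probe sets counts every tested one, dim ones included, so it is printed for scale only. At 4 h 0 passed (limma, adjusted p under 0.05; 4 at an unadjusted p under 0.05), where 0.285% of all probe sets did. At 8 h 1 was higher, Hebp1, which encodes a heme-binding protein, at 1.41 (SE 0.28, limma, adjusted p = 0.0037), where 3.25% of all probe sets were called. That call rests on vehicle at 4 h replicate 2, without which the difference was 0.92 and the adjusted p 0.2. Between the vehicle groups 0 passed (6 at an unadjusted p under 0.05), where 0.123% of all probe sets did.

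At 24 h 10 of the 52 were higher and 5 lower, shares near the 16.6% and 12.5% of all probe sets (limma, adjusted p under 0.05). The 24 h calls are thus given as single genes and not as a trait of the list. The calls were mixed within heme synthesis, where 2 of 10 were higher and 2 lower. Ppox, an enzyme late in that pathway, rose by 0.70 (SE 0.11, limma, adjusted p = 2.5e-05) and Uros, an earlier one, by 0.89 (SE 0.20, adjusted p = 0.0016). Alad, the second enzyme of the pathway, fell by 0.79 (adjusted p = 0.0045) and the porphyrin transporter Abcb6 fell by 0.80 (adjusted p = 0.013), the latter not called without 24 h replicate 2 (0.061) or replicate 3 (0.059). Ncoa4, the receptor that delivers ferritin to lysosomes, rose by 0.57 (adjusted p = 0.0045), Hebp1 by 0.97 (0.0048) and Slc22a17, a lipocalin receptor, by 0.69 (0.004). Glrx5, which carries iron-sulfur clusters in mitochondria, fell by 0.45 (adjusted p = 0.00071).

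At 48 h 19 of the 52 were higher and 7 lower (limma, adjusted p under 0.05), beside 20.6% and 17.7% of all probe sets, with a median difference of 0.29 against 0.04 over all probe sets. In heme transport and breakdown 6 of 9 were higher and 1 lower. Hebp1 went from 67.6 ± 11.4 (SD, n = 3) in vehicle to 406.7 ± 12.3 (n = 3), a rise of 2.35 (SE 0.25, limma, adjusted p = 5.3e-08). The scavenger receptor Lrp1, which takes up heme bound to hemopexin, rose by 1.73 (adjusted p = 6.2e-07), the heme importer Slc48a1 of phagosomes by 1.30 (1.9e-06), the heme-sensing repressor Bach1 by 0.87 (1.3e-06) and the biliverdin reductase Blvra by 0.91 (5e-06). Blvra was lower at 24 h, by 0.43 (adjusted p = 0.016).

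Iron uptake had 6 of 12 genes higher and 1 lower at 48 h. Beside this count and those of the lists below stand 20.6% higher and 17.7% lower of all probe sets. Steap4, a metalloreductase, was 5.3 ± 1.3 (SD, n = 3) in vehicle and 135.4 ± 49.3 (n = 3) at 48 h, a rise of 2.78 (SE 0.45, limma, adjusted p = 2.4e-05). In storage and iron chaperones 1 of 3 was higher and 2 lower. Ncoa4 was 503.6 ± 62.3 (n = 3) in vehicle and 1692 ± 78 (n = 3) at 48 h, a rise of 1.72 (SE 0.15, limma, adjusted p = 1.6e-09). The chaperones that load ferritin with iron went down, Pcbp1 by 0.82 (adjusted p = 1.5e-08) and Pcbp2 by 0.64 (1.7e-06). Of 7 genes of iron sensing and its hormone 1 was higher, Hfe, a partner of the transferrin receptor, at 2.16 (adjusted p = 3e-07), and 1 was lower. Export and ferroxidases had 1 of 2 higher, heme synthesis 1 of 10 higher, and mitochondrial iron and iron-sulfur clusters 3 of 9 higher and 2 lower. The counts for iron sensing and for heme synthesis are no larger than the shares of all probe sets. Both tested probe sets of Ncoa4, Lrp1, Slc48a1 and Bach1 were called at 48 h, against 1 of 2 for Hfe and for Steap4.

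**Figure D4:**
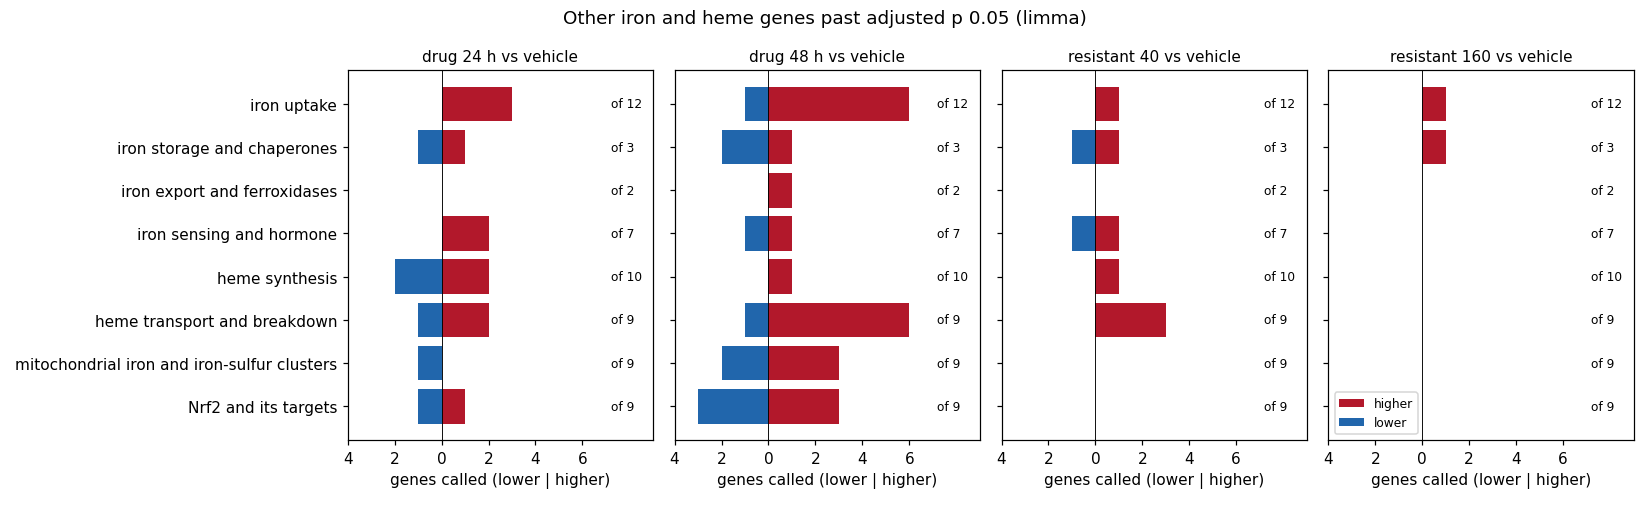
Number of genes of each iron, heme or Nrf2 list higher (red, to the right) or lower (blue, to the left) at an adjusted p under 0.05, with the number tested printed at the right of each bar. Panels show 24 h, 48 h, resistant 40 and resistant 160 against vehicle. At 48 h iron uptake and heme transport and breakdown have 6 genes higher each, and resistant 160 has 2 calls in all.

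In resistant 40 tumours 7 of the 52 were higher and 2 lower (limma, adjusted p under 0.05), beside 3.83% and 3.29% of all probe sets. Lrp1 was 269.9 ± 56.7 (SD, n = 3) in vehicle and 781.0 ± 69.8 (n = 3) here, a rise of 1.49 (SE 0.22, limma, adjusted p = 0.00014). Hfe rose by 1.28 (adjusted p = 0.0028), Ncoa4 by 0.67 (0.0053) and Bach1 by 0.59 (0.0019), and Pcbp2 fell by 0.37 (0.0081). Hebp1 rose by 1.03 (adjusted p = 0.011, and 0.065 without vehicle replicate 1). Aco1, an iron-sensing RNA-binding protein, fell by 0.45 (adjusted p = 0.019, but 0.1 without resistant 40 replicate 1 and 0.099 without vehicle replicate 3). Lcn2, which binds iron-carrying siderophores, rose by 1.36 (adjusted p = 0.036) and was not called without resistant 40 replicate 2 (0.15) or 3 (0.12) or vehicle replicate 1 (0.12) or 2 (0.14). Abcb6 rose by 0.78 (adjusted p = 0.047) and was not called without resistant 40 replicate 2 (0.16) or 3 (0.12) or without vehicle replicate 1 (0.12), 2 (0.14) or 3 (0.078).

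In resistant 160 tumours 2 of the 52 were higher and 0 lower (limma, adjusted p under 0.05; 14 at an unadjusted p under 0.05), beside 0.804% and 0.208% of all probe sets. Ncoa4 was 863.7 ± 241.6 (SD, n = 3), a rise of 0.73 (SE 0.15, limma, adjusted p = 0.015), which was not called without resistant 160 replicate 3 (0.16), vehicle replicate 1 (0.099) or vehicle replicate 3 (0.062). Without resistant 160 replicate 1 the count was 5. Lcn2 was 68.3 ± 35.2 (n = 3) against 11.5 ± 10.0 (n = 3) in vehicle, a rise of 1.60 (SE 0.39, limma, adjusted p = 0.048), which was not called without resistant 160 replicate 2 (0.057) or 3 (0.29) or vehicle replicate 1 (0.18) or 2 (0.19).

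Set against 48 h, resistant 40 tumours had 7 of the 52 genes higher and 11 lower (limma, adjusted p under 0.05), beside 14.6% and 15.4% of all probe sets. Steap4 differed by -2.30 (adjusted p = 0.00034), Hebp1 by -1.31 (0.00024), Ncoa4 by -1.05 (5.8e-06), Slc48a1 by -0.92 (0.00025) and Blvra by -0.73 (0.00015). Pcbp1 was higher by 0.69 (adjusted p = 4.3e-07), Abcb6 by 0.93 (0.0042) and Glrx5 by 0.41 (0.0018). For Ncoa4, Hebp1, Slc48a1, Blvra and Steap4 the sign is the reverse of that at 48 h against vehicle, with which it shares the 48 h arrays. Resistant 160 against resistant 40 had 0 higher and 2 lower, beside 1.35% and 0.779% of all probe sets. These were Lrp1, by -1.06 (SE 0.22, limma, adjusted p = 0.007), and Abcb6, by -0.92 (SE 0.24, adjusted p = 0.039), the latter not called without resistant 160 replicate 2 (0.11) or 3 (0.12) or resistant 40 replicate 2 (0.16) or 3 (0.14).

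Of 9 genes of Nrf2, a factor known to induce Hmox1 and glutathione genes, 3 were higher and 3 lower at 48 h (limma, adjusted p under 0.05), beside 20.6% and 17.7% of all probe sets. Srxn1, which repairs peroxiredoxins, was 86.6 ± 30.9 (SD, n = 3) in vehicle and 217.6 ± 44.3 (n = 3) at 48 h, a rise of 1.21 (SE 0.23, limma, adjusted p = 0.00017). Gclm, a subunit of the first enzyme of glutathione synthesis, rose by 0.51 (adjusted p = 0.032) and Nfe2l2, which encodes Nrf2, by 0.32 (0.034). The catalytic partner Gclc fell by 0.46 (adjusted p = 0.01), glutathione reductase Gsr by 0.68 (0.0038) and thioredoxin reductase Txnrd1 by 0.51 (3e-04), the last on 1 of its 3 probe sets. At 24 h 1 was higher and 1 lower, a share no larger than the 16.6% and 12.5% of all probe sets. They were Srxn1 at 0.83 (adjusted p = 0.0084, and 0.069 without vehicle replicate 2) and Gsr at -0.76 (0.0022). In either resistant group against vehicle 0 of the 9 were called (limma, 3 in resistant 40 and 1 in resistant 160 at an unadjusted p under 0.05). Over all probe sets 3.83% were higher and 3.29% lower in resistant 40, and 0.804% and 0.208% in resistant 160. At these shares 9 genes are too few to show a lack of calls.

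Across the 23 arrays, the gene whose log2 signal was most like that of Slc40a1, of 14979 genes, was Hmox1, with a Pearson r of 0.967 as a description. Apoe (0.965), Wfdc17 (0.959), Selenop (0.958) and Lyz2 (0.958) followed. For Hmox1 the order was Slc40a1, Clec4n (0.953), Lyz2 (0.951), Cd53 (0.944) and Lyz1 (0.943). For Tfrc it was Fgd6 (0.881), Cdk6 (0.852), Cerk (0.849), Krt12 (0.847) and Dock11 (0.841). These arrays fall into 8 groups and share them across genes, so the values describe the arrays and carry no p-value.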

How the data were processed

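The authors deposited 1 linear signal intensity per probe set, 45101 in all, for each of 23 arrays, processed with MAS5 per the submitters' processing notes, which give no version. The trimmed mean was the same on every array, so the values were taken as scaled by the authors and were not normalized again. Detection calls and probe-level intensities are not used here. Array intensities give no counting error, and the number of arrays limits the precision. The design text names a smaller array of the same family than the number of probe sets corresponds to.

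Groups follow the description label. Of the probe sets, 34958 have 1 symbol in the platform annotation, 932 several and 9211 none, and those with several name no gene. A member's leading probe set is the one with the highest mean log2 signal. Signals were analysed as log2 of signal plus 16, after keeping the 35066 probe sets that exceeded the 40th percentile of the array's signals on 2 arrays or more, control probe sets aside. All 10 members passed through their leading probe set. One model with a mean per group was fitted with limma 3.58.1 in R 4.3.3 (eBayes with trend; the data.table package had version 1.17.8) and tested on simulated data. Tests were two-sided, with the Benjamini-Hochberg adjustment over all tested probe sets of a comparison (9 comparisons, threshold 0.05). No vehicle is labelled 24 or 48 h, so those groups were set against the vehicle without a time.

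Of 60 other iron and heme genes listed, 55 are named on the array and 52 were tested, each by its leading probe set. The members, lists and tests were chosen with earlier results of these data known. Named beyond the members are up to 10 called genes with the smallest p in each comparison of 24 h, 48 h or a resistant group with vehicle and of resistant 40 with 48 h, up to 4 in the others, and the 5 genes most like Slc40a1, Hmox1 and Tfrc. Blvra at 24 h, the Nrf2 genes at 48 h, Slc4a1, Gata1, Epor, Car1, Gli1 and Neurod1 were named after their values were seen. Replicate numbers did not pair the arrays. Alternatives were the offset (1 or 64), all 5 vehicle arrays as control, no filter or one at the 60th percentile, eBayes with no trend, a fit on the compared arrays alone, quantile normalization, a block for the replicate number or for the run of identifiers in the sample titles, and each array left out in turn.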

Additional observations from a re-analysis of the deposited data

Results flagged for a closer look

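Gclc, Txnrd1 and Abcb6, tested beside the members, had differences from vehicle that were unequal at 48 h and in resistant 40 tumours, by the test of resistant 40 against 48 h itself, which shares no vehicle array. Gclc differed by -0.46 at 48 h (limma, adjusted p = 0.01) and by 0.09 in resistant 40 tumours (0.78), and the difference between these was 0.55 (SE 0.14, adjusted p = 0.0033). Txnrd1 differed by -0.51 (limma, adjusted p = 3e-04) and by 0.09 (0.72), with 0.60 between them (SE 0.10, adjusted p = 8.1e-05). Abcb6 differed by -0.14 (limma, adjusted p = 0.69) and by 0.78 (0.047), with 0.93 between them (SE 0.24, adjusted p = 0.0042). The genes were flagged because their differences from vehicle had opposite signs, but for each gene the smaller difference did not pass. Txnrd1 at 48 h was not called on all of its probe sets, and the Abcb6 call in resistant 40 tumours was lost when any vehicle array was left out.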

How the results depend on the processing

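Groups of 2 or 3 arrays limit every result, and signals below the 40th percentile, as for Cd163 and Alas2 in most groups, have no order. Of 1020 values of the members under the alternatives, 969 stayed within 1 SD between replicates, 51 moved further and 0 reversed; the largest moves came from the offset and concern Cd163 and Hp, whose 48 h differences were 5.12 and 4.64 with an offset of 1 and 1.08 and 1.48 with 64. The 8 h count of iron and heme genes (1) was 2 with an offset of 1, the 60th percentile filter, only the compared arrays or the identifier run as a block, and 3 with all 5 vehicle arrays. The resistant 160 count (2) was 1 with an offset of 64, no filter, quantile normalization or the identifier run as a block, and 0 without the trend or with only the compared arrays. The count for resistant 160 against resistant 40 (2) was 1 with an offset of 1, no filter or no trend, 4 with the 60th percentile filter and 0 with only the compared arrays. The cause was not tested. Leaving out 1 array gave 0 at 4 h and between the vehicle groups, 0 to 2 at 8 h, 10 to 14 at 24 h, 19 to 25 at 48 h, 7 to 9 for resistant 40, 0 to 5 for resistant 160, 13 to 16 for resistant 40 against 48 h and 1 to 4 between the resistant groups. Of the named calls, 8 of 10 at 24 h, 10 of 10 at 48 h and 10 of 10 for resistant 40 against 48 h held under every setting run, as did 5 of 9 for resistant 40, 1 of 2 between the resistant groups, 0 of 1 at 8 h and 0 of 2 for resistant 160.

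The replicate block left counts of 0, 1, 15, 19, 8, 2, 12 and 0 for 4 h, 8 h, 24 h, 48 h, resistant 40, resistant 160, resistant 40 against 48 h and the vehicle groups, and 1 between the resistant groups, where the call for Abcb6 was lost. Correlations of same-numbered arrays ran from -0.10 to 0.08, so the numbers do not pair the arrays. The identifier run as a block drops replicate 1 of vehicle at 4 h, the only array of its run.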
